A study of Mus musculus with 6 samples.

Results

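Transcripts of 10 histone chaperone genes were followed in mouse 1-cell embryos: Asf1a, Asf1b, Chaf1a, Chaf1b, Hira, Ubn1, Cabin1, Daxx, Atrx and Npm2. They were chosen by name, all 10 were found among the 36065 genes of the deposited table with 1 record each, and all 10 were abundant enough to be tested. The embryos were wild type, were kept in culture and received 1 of 3 additions. CBR+SAM embryos were given CBR-5884, an inhibitor of serine metabolism, and also S-adenosylmethionine (SAM), from which histone and DNA methyltransferases take their methyl groups. CBR embryos were given CBR-5884 alone, and DMSO embryos, the controls, were given the solvent. There were 2 biological replicates per group and 6 libraries in all. No group received SAM alone, so an effect of SAM cannot be told apart from one that needs the inhibitor. The labels used here give neither the strain, the dose, the time of collection nor the number of embryos pooled per library.

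Histone chaperones escort newly made or evicted histones and hand them to DNA, so that free histones do not bind where they should not. At fertilization the sperm genome arrives packed with protamines, which are stripped off and replaced by maternal histones, at first mostly the variant H3.3. The HIRA complex (Hira, Ubn1, Cabin1) places H3.3 outside of replication and is known to act on the paternal genome of the mouse zygote. Daxx and Atrx place H3.3 in heterochromatin, and the CAF-1 subunits Chaf1a and Chaf1b place the replicative H3 behind the replication fork. Asf1a and Asf1b pass H3 and H4 to HIRA and CAF-1. Npm2 is the oocyte's nucleoplasmin, which binds H2A and H2B and acts on sperm chromatin and nucleoli after fertilization. The mRNA seen here may have been stored by the oocyte or newly made, which these levels do not separate. The values have similar totals in all libraries, so neither the number of embryos nor the total mRNA per embryo can be read from them.

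Asf1a and Asf1b are paralogs that resemble each other in their coding sequence, so it had to be seen whether reads could tell them apart. Their coding sequences have 612 bases in Asf1a and 606 in Asf1b. No stretch of 31 bases of any Asf1b transcript occurred in the transcripts of another gene of the table. A highly similar stretch of 150 bases, coding bases 64 to 213 in exons 1 and 2 of both genes, is shown with the 30 bases that differ in capitals, and its longest identical run has 18 bases. The sequences are from GENCODE M21 (GRCm38, mm10), at chr10:53597253-53602451 (plus strand, intron included) for Asf1a and chr8:83955892-83965134 (plus strand, intron included) for Asf1b.
Asf1a: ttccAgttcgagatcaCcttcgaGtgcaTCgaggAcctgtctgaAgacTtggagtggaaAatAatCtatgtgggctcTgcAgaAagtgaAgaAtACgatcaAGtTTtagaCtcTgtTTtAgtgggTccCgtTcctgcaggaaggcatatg
Asf1b: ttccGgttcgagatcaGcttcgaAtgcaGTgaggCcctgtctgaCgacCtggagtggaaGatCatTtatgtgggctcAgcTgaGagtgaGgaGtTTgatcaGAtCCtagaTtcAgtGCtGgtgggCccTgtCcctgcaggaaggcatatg

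Npm2 is shown for the acidic tract with which nucleoplasmins hold basic histones. Of its 206 codons 42 (20.4%) encode aspartate or glutamate, and 21 of these fall in the 25 codons that are richest in them. That stretch, coding bases 373 to 447 in exon 6 at chr14:70648317-70648391 (minus strand, GENCODE M21, mm10), is printed with the acidic codons in capitals.
Npm2: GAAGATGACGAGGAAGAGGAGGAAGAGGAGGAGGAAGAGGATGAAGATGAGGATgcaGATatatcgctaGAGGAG

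Other members did share sequence with neighbours. Of the longest coding transcript of Asf1a, 67.0% of all stretches of 31 bases also occurred in transcripts of Mcm9, which was listed at 25.1 to 34.6. Chaf1a shared 47.1% of its longest coding transcript, mainly with Ubxn6, listed at 1.43 to 3.75. Hira shared 65.0%, with Gm28539, which was listed at 0 in every library. The share was 0 for Chaf1b, Ubn1 and Cabin1 and at most 0.207% for Daxx, Atrx and Npm2. The division of reads in these shared parts is uncertain for Asf1a, Chaf1a and Hira, and the kit's protocol describes no strand marking.

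Values are the authors' abundances per gene, which add up to 956209 to 1059424 per library. The sources used here do not state their unit. Low values of 335 to 365 genes with a single transcript, multiplied by transcript length less a fitted fragment length, fell on regular steps in each library, so the values are read as scaled by length, and comparisons between genes rest on that reading. The 10 oocyte and zygote markers were all detected, with summed values of 40687 and 50266 in CBR+SAM, 42877 and 43883 in CBR, and 40188 and 38994 in DMSO. Among 10 cumulus cell markers 8 stayed below 1 in every library, and the list's sum ran from 13.7 to 15.2 in CBR+SAM, 13.3 to 15.3 in CBR and 9.56 to 13.7 in DMSO. The 8 sperm markers, 3 of them at 0 in all libraries, summed to 11.5 to 16.3 in CBR+SAM, 15.7 to 16.2 in CBR and 13.4 to 13.9 in DMSO, nearly all of it Prm2. The 6 oviduct markers summed to 5.46 to 7.83 and the 6 blood markers to at most 0.635 in any library. CBR+SAM replicate 2 stood apart from the other libraries. It held the highest or lowest value of the 6 libraries in 56.9% of the 12249 genes tested, against 23.1% to 32.5% for each of the other libraries, and in 8 of the 10 chaperone genes. In the text, fitted changes of single genes that involve CBR+SAM are therefore given with and without it.

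The chaperone genes fell into 2 ranges of abundance. Npm2, Asf1a, Asf1b and Atrx made up 97.6% to 97.9% of the summed value of the 10 genes in every library. Npm2 ranked 153, Asf1a 161, Asf1b 485 and Atrx 760 among the 10604 protein-coding genes whose mean reached 1. The other 6 ranked from 4679 (Chaf1a) to 10338 (Hira). Asf1a and Npm2 each held first place in 3 of the 6 libraries, so the order of this pair is not resolved. Asf1b held place 3, Atrx place 4 and Hira place 10 in all 6 libraries. Chaf1a held place 5 in 5 of 6, and Daxx took it in CBR+SAM replicate 2. Ubn1 held place 6 in 5 of 6 and Daxx place 9 in 4 of 6. Among the members below Atrx, only Chaf1b and Cabin1 exchanged places within the CBR and DMSO libraries. The other changes of order among them were in CBR+SAM.

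**Figure D1:**
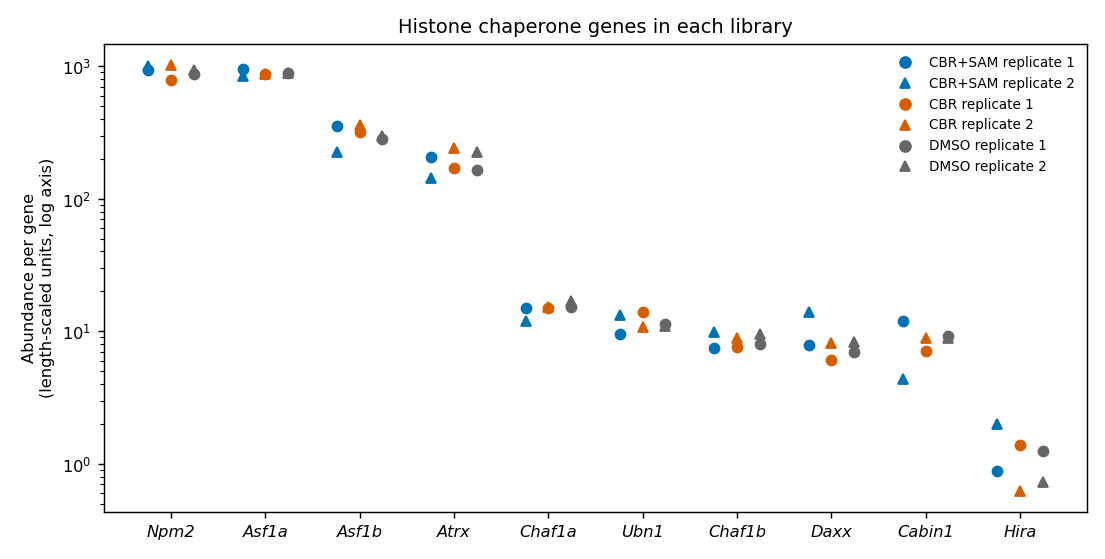
Abundance of each histone chaperone gene in each library, on a log axis in the authors' length-scaled units, with blue for CBR+SAM, orange for CBR and grey for DMSO, and circles and triangles for replicates 1 and 2. Npm2 (793 to 1017) and Asf1a (845 to 952) stand highest, Hira lies lowest at 0.627 to 1.99, and the 2 CBR+SAM points are furthest apart for Cabin1.

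The maternal nucleoplasmin Npm2 (ENSMUSG00000047911, chromosome 14, 70647302 to 70659244, minus strand) was the most abundant member by mean. It stood at 938 and 1009 in CBR+SAM, 793 and 1017 in CBR, and 879 and 937 in DMSO. Replicate 1 of CBR was the lowest and replicate 2 of CBR the highest of the 6 libraries, so the CBR pair spanned all others. Both CBR+SAM libraries lay above the DMSO libraries, the lower one only narrowly. Means were 973 ± 50.002 in CBR+SAM, 905 ± 159 in CBR and 908 ± 41.3 in DMSO (SD, n = 2 each). Its fitted log2 change was -0.01 (SE 0.16, 95% interval -0.40 to 0.37) in CBR against DMSO and 0.10 (SE 0.16, interval -0.28 to 0.48) in CBR+SAM against DMSO, or 0.05 without CBR+SAM replicate 2. With all 6 libraries the adjusted p was 0.9999 in CBR against DMSO and 0.9997 in CBR+SAM against DMSO (limma, Benjamini-Hochberg over the 12249 genes). Changes are of log2(value + 1) throughout, which understates those of low genes.

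Asf1a (ENSMUSG00000019857, chromosome 10, 53596757 to 53609225, plus strand), which favours the HIRA route in mammalian cells, was the steadiest member. It stood at 952 and 845 in CBR+SAM, 876 and 878 in CBR, and 887 and 896 in DMSO. The CBR libraries lay just below the DMSO libraries, and the CBR+SAM libraries enclosed both groups. The log2 change in CBR against DMSO was -0.02 (SE 0.13, interval -0.34 to 0.29). The SD of its log2 values over the 6 libraries, 0.0566, was larger than that of only 1.11% of the 270 genes within a factor of 2 of its mean.

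Asf1b (ENSMUSG00000005470, chromosome 8, 83955507 to 83970197, plus strand), the paralog tied to proliferating cells, stood at 355 and 226 in CBR+SAM, 317 and 359 in CBR, and 284 and 299.7 in DMSO. Both CBR libraries were above both DMSO libraries, CBR+SAM replicate 1 lay between the CBR values, and CBR+SAM replicate 2 was the lowest library. The log2 change in CBR against DMSO was 0.21 (SE 0.22, interval -0.31 to 0.73), with an unadjusted p of 0.373 and an adjusted p of 0.9999 (limma). This was the largest change of the 10 genes in that comparison and was not larger than its error. In CBR+SAM against CBR the change was -0.25 (SE 0.22), and 0.07 without CBR+SAM replicate 2. Asf1a exceeded Asf1b by 2.68 and 3.73 times in CBR+SAM, 2.76 and 2.44 times in CBR, and 3.12 and 2.99 times in DMSO.

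The CAF-1 subunits were of moderate abundance. Chaf1a (ENSMUSG00000002835, chromosome 17, 56040439 to 56072289, plus strand), the large subunit that binds the replication clamp, stood at 15.1 and 11.9 in CBR+SAM, 14.9 and 15.3 in CBR, and 15.2 and 16.8 in DMSO. Chaf1b (ENSMUSG00000022945, chromosome 16, 93883901 to 93906115, plus strand), the middle subunit, stood at 7.52 and 9.83 in CBR+SAM, 7.66 and 8.88 in CBR, and 8.06 and 9.48 in DMSO. Chaf1a was below both DMSO values in both CBR+SAM libraries, while Chaf1b had its highest and lowest values within CBR+SAM. For Chaf1a the log2 change in CBR+SAM against DMSO was -0.24 (SE 0.18, interval -0.66 to 0.18), and -0.08 without CBR+SAM replicate 2. In CBR against DMSO it was -0.08 for both subunits (intervals -0.50 to 0.34 for Chaf1a and -0.55 to 0.40 for Chaf1b). The ratio of Chaf1a to Chaf1b was 2.00 and 1.21 in CBR+SAM, 1.95 and 1.72 in CBR, and 1.89 and 1.77 in DMSO, so CBR+SAM replicate 2 alone left the range of 1.72 to 2.00.

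Hira (ENSMUSG00000022702, chromosome 16, 18877037 to 18970309, plus strand), the subunit that gives the H3.3 complex its name, was the scarcest member. It stood at 0.876 and 1.99 in CBR+SAM, 1.38 and 0.627 in CBR, and 1.26 and 0.727 in DMSO. The libraries differed more within each group than between group means, and replicate 1 was the higher in CBR and DMSO but the lower in CBR+SAM. The log2 change was -0.01 (SE 0.32, interval -0.77 to 0.76) in CBR against DMSO, and 0.27 (SE 0.32, interval -0.50 to 1.03) in CBR+SAM against CBR, or -0.07 without CBR+SAM replicate 2. From the regular steps between low values, 61 to 200 reads per library were estimated for Hira, if all came from its longest coding transcript of 4218 bases. Counting alone would give such numbers an SD of up to 12.8%.

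Its partners were listed at several times its level. Ubn1 (ENSMUSG00000039473, chromosome 16, 5050057 to 5086289, plus strand), which recognises H3.3 in the complex, stood at 9.46 and 13.2 in CBR+SAM, 13.9 and 10.7 in CBR, and 11.4 and 11.1 in DMSO. Cabin1 (ENSMUSG00000020196, chromosome 10, 75646112 to 75764341, minus strand), another subunit of the complex, stood at 12.02 and 4.37 in CBR+SAM, 7.05 and 8.91 in CBR, and 9.18 and 8.97 in DMSO. Cabin1 had both its highest and its lowest value in CBR+SAM, and its CBR values were both under its DMSO values. The replicates of CBR+SAM differed in Cabin1 by -1.28 in log2(value + 1), replicate 2 minus replicate 1, an absolute difference at the 98.0th percentile of all genes tested. Its log2 change in CBR against DMSO was -0.17 (SE 0.38, interval -1.08 to 0.73). For CBR+SAM against CBR it was -0.10 (SE 0.38). It was 0.54 without CBR+SAM replicate 2 but -0.73 without CBR+SAM replicate 1, each resting on a single CBR+SAM library.

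Ubn1 showed no change beyond its error, at 0.11 (SE 0.22, interval -0.39 to 0.62) in CBR against DMSO and -0.12 (SE 0.22, interval -0.63 to 0.39) in CBR+SAM against CBR, or -0.34 without CBR+SAM replicate 2. Ubn1 and Cabin1 differed in opposite directions between the replicates of CBR+SAM and of CBR, though not of DMSO. The ratio of Ubn1 to Cabin1 was 0.787 and 3.01 in CBR+SAM, 1.97 and 1.20 in CBR, and 1.24 and 1.23 in DMSO. The summed value of the 3 HIRA complex genes lay at 22.4 and 19.5 in CBR+SAM, 22.3 and 20.3 in CBR, and 21.8 and 20.8 in DMSO.

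Of the heterochromatin pair, Atrx was abundant and Daxx was not. Atrx (ENSMUSG00000031229, chromosome X, 105797615 to 105929403, minus strand), a chromatin remodeller known to act at maternal pericentromeric heterochromatin, stood at 207 and 142 in CBR+SAM, 172 and 239.8 in CBR, and 164 and 224 in DMSO. Replicate 2 was the higher in CBR and DMSO and the lower in CBR+SAM. These replicate differences were 0.48 in CBR and 0.44 in DMSO on the log2 scale, larger than in 96.7% and 97.0% of the 1092 genes within a factor of 2 of its mean. The fitted change in CBR against DMSO was 0.08 (SE 0.26, interval -0.52 to 0.69). For CBR+SAM against CBR it was -0.24 (SE 0.26), and 0.03 without CBR+SAM replicate 2.

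Daxx (ENSMUSG00000002307, chromosome 17, 33909414 to 33915590, plus strand), which binds H3.3 itself and is recruited with Atrx, stood at 7.85 and 13.9 in CBR+SAM, 6.11 and 8.21 in CBR, and 6.95 and 8.25 in DMSO. CBR+SAM replicate 2 was the highest library, and CBR+SAM replicate 1 lay within the range of the other libraries. Means were 10.9 ± 4.25 in CBR+SAM, 7.16 ± 1.49 in CBR and 7.60 ± 0.919 in DMSO (SD, n = 2 each). Its change of 0.50 in CBR+SAM against CBR (SE 0.28, interval -0.16 to 1.16) was the largest of any member in any comparison, with an unadjusted p of 0.115 and an adjusted p of 0.988 (limma). It was 0.13 without CBR+SAM replicate 2. The ratio of Atrx to Daxx was 26.3 and 10.3 in CBR+SAM, 28.1 and 29.2 in CBR, and 23.6 and 27.1 in DMSO.

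**Figure D2:**
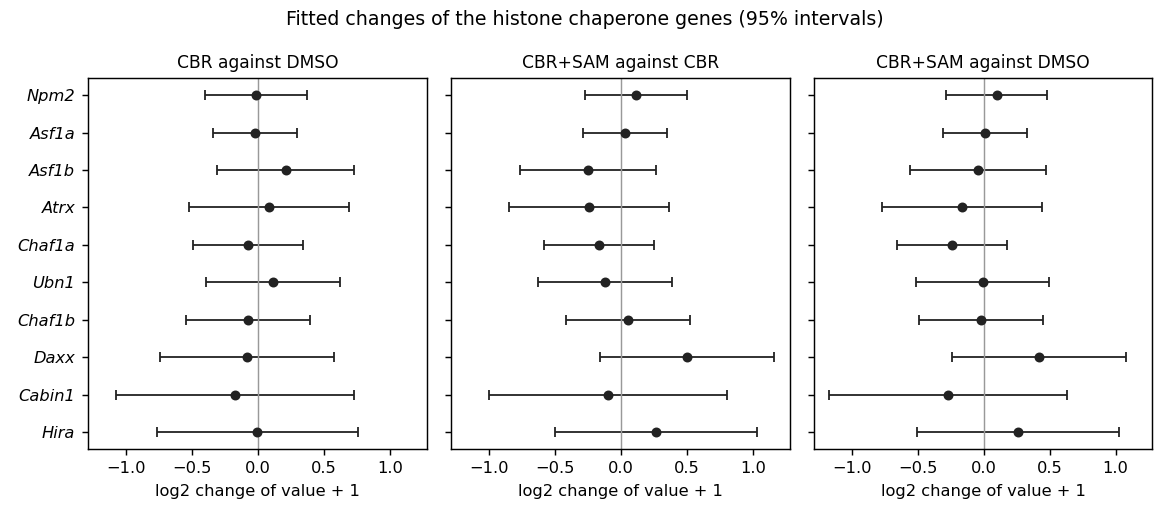
Fitted log2 changes of value + 1 (points) with 95% intervals (bars) for the histone chaperone genes in the 3 comparisons, genes ordered by mean abundance from top to bottom. Every interval spans 0, and the point furthest from it is that of Daxx in CBR+SAM against CBR, at 0.50.

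The first comparison, CBR against DMSO, asked whether an inhibitor of serine metabolism altered the supply of chaperone transcripts. None of the 10 members was called at an adjusted p under 0.05 (limma), where 0% of all 12249 genes were, and none had an unadjusted p under 0.05, where 2.12% of all genes did. The groups did not overlap in 3 of 10 members, Asf1b higher and Asf1a and Cabin1 lower, against 33% of all genes. The fitted change was above 0 in 3 of 10 and below 0 in 7, where it was above 0 in 48.3% of all genes tested. The median change was -0.02 on the log2 scale, against -0.0074 over all genes tested. For 9 of the 10 genes the 95% interval lay within a log2 change of 1 in either direction, the exception being Cabin1.

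CBR+SAM against CBR addressed the methyl donor in inhibited embryos. Again none of the 10 members was called, where 0.00816% of all genes were, a single gene, the pseudogene Gm16550 (singled out here because of its value). None had an unadjusted p under 0.05, where 3.09% of all genes did. The groups did not overlap in 0 of 10 members, against 27.5% of all genes. The median change was -0.03, against 0.014 over all genes. The fitted change was above 0 in 5 members and below 0 in 5, where it was above 0 in 52.4% of all genes. Without CBR+SAM replicate 2 it was above 0 in 6 and below 0 in 4, with a median of 0.04. Intervals lay within 1 in either direction for 8 of 10, the exceptions being Hira and Daxx. Without CBR+SAM replicate 2 no member was called either.

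In CBR+SAM against DMSO none of the 10 was called, where 0.00816% of all genes were, Gm16550 again, and none had an unadjusted p under 0.05, where 2.14% of all genes did. The groups did not overlap in 2 of 10, Npm2 higher and Chaf1a lower, against 24.5% of all genes. The median change was -0.01, or 0.05 without CBR+SAM replicate 2, against -0.0048 over all genes with 6 libraries, and intervals lay within 1 for 7 of 10, the exceptions being Hira, Cabin1 and Daxx. The 3 comparisons share libraries and are not independent of each other. A p that misses the threshold does not show that the levels were equal, and the intervals give the sizes that these 2 libraries per group leave possible.

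The median absolute difference between replicates over the 10 genes was 0.49 in CBR+SAM, 0.32 in CBR and 0.11 in DMSO, in log2(value + 1), against 0.31, 0.19 and 0.17 in the same groups over all genes tested. With all 6 libraries, the median absolute fitted change of the 10 genes was 0.08 for CBR against DMSO. It was 0.14 for CBR+SAM against CBR and 0.13 for CBR+SAM against DMSO. Over all genes tested the values were 0.126, 0.155 and 0.137 in the same order. Fitted changes compare means of 2 libraries, so they cannot be set directly against differences between single libraries. DMSO replicate 1 held the highest or lowest value in 0 of the 10 genes and DMSO replicate 2 in 1, that of Chaf1a. CBR+SAM replicate 2 was highest in Chaf1b, Hira and Daxx and lowest in Asf1a, Asf1b, Chaf1a, Cabin1 and Atrx.

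**Figure D3:**
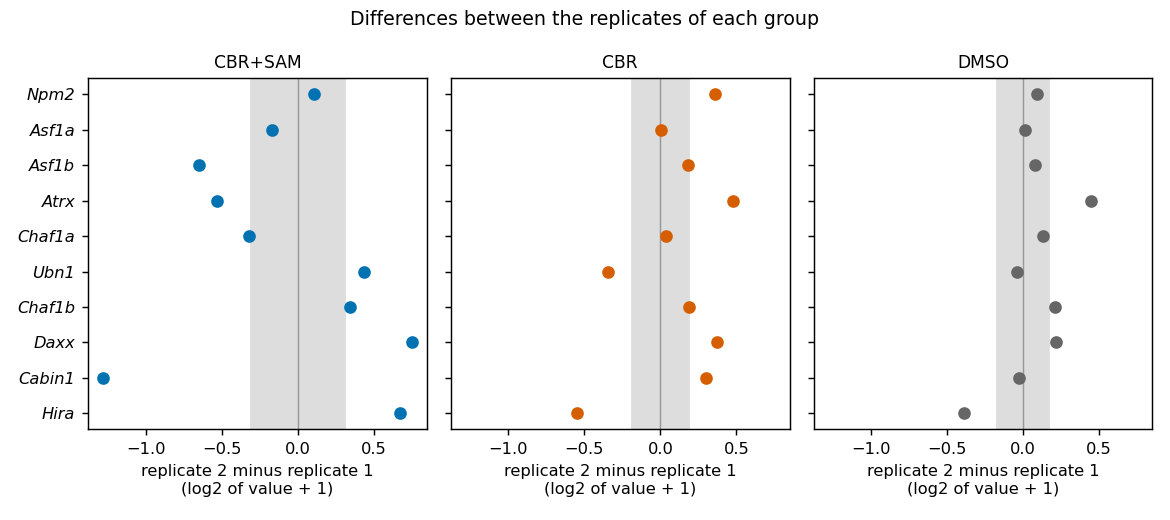
Difference between replicate 2 and replicate 1 of each group, in log2 of value + 1, for the histone chaperone genes (points), with CBR+SAM left, CBR in the middle and DMSO right. The grey band spans plus and minus the median absolute difference of all genes tested, 0.31 in CBR+SAM, 0.19 in CBR and 0.17 in DMSO, and Cabin1 in CBR+SAM lies furthest out at -1.28.

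Across the 6 libraries some members varied together, which is given as a description because the libraries share groups and depth and because CBR+SAM replicate 2 is among them. Hira and Atrx ran opposite to each other, with a Pearson r of -0.98 of the log2 values over 6 libraries. This was the most extreme r of all pairs of members. Hira was also opposite to Chaf1a (-0.83) and Asf1b (-0.83). Its values rest on an estimated 61 to 200 reads per library and are uncertain in the parts shared with another gene. Asf1a and Cabin1 had the highest r among the members (0.89), followed by Asf1b and Cabin1 (0.83) and by Asf1b and Atrx (0.82). Subunits of a complex did not run together as a rule: r was 0.73 for Hira and Ubn1, -0.83 for Ubn1 and Cabin1, -0.80 for Hira and Cabin1, -0.32 for Chaf1a and Chaf1b and -0.36 for Daxx and Atrx.

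Among 5573 other protein-coding genes whose mean reached 10, those most like Npm2 over the 6 libraries were Ccdc105 (r = 0.98), Ascc1 (0.98) and Lsm2 (0.98), and 61 genes reached an r of 0.9. Those most like Asf1b, the member with the smallest unadjusted p in CBR against DMSO, were the DNA repair ubiquitin ligase gene Rad18, the peroxisome gene Pex3 and Ccndbp1, each with an r of 1.00 to 2 decimals, and 382 genes reached 0.9. Rad18 stood at 66.8 and 42.7 in CBR+SAM, 60.1 and 68.0 in CBR, and 54.5 and 55.7 in DMSO, lowest in CBR+SAM replicate 2 as Asf1b was. With 6 libraries and this many candidates, values of this size are reached by many genes.

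Other histone chaperones and their partners were looked at as a list of 32 genes, of which 28 were tested. With all 6 libraries, none was called in any comparison (limma), and none had an unadjusted p under 0.05. Over all genes tested, 0% to 0.00816% were called and 2.12% to 3.09% had such an unadjusted p (limma), depending on the comparison. With 28 genes and such small shares, a count of 0 cannot tell the list from all genes. The most abundant were Rbbp7, a subunit that CAF-1 shares with other chromatin complexes, Npm1, the somatic nucleophosmin, and Srpk1, a kinase that phosphorylates protamine. Rbbp7 stood at 2980.4 and 1383 in CBR+SAM, 2920 and 2649.5 in CBR, and 2463 and 2313 in DMSO. Its fitted log2 change was -0.45 (SE 0.32) in CBR+SAM against CBR, or 0.10 without CBR+SAM replicate 2. In CBR+SAM against DMSO it was -0.23 (SE 0.32), or 0.32 without that library. Npm1 stood at 1487 and 1763 in CBR+SAM, 1522 and 1559 in CBR, and 1427 and 1359.7 in DMSO. Srpk1 stood at 725 and 500.5 in CBR+SAM, 765 and 742 in CBR, and 650.1 and 666 in DMSO. In all 3 genes the CBR values lay above the DMSO values, as in 9 of the 28 tested genes of the list, while 3 of the 28 lay below, against 33% of all genes without overlap in either direction. Among these 3 genes, CBR+SAM replicate 2 was the lowest library for Rbbp7 and Srpk1 and the highest for Npm1.

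In CBR against DMSO, fitted changes of the list were above 0 in 19 of 28, where 48.3% of those of all genes were. Their median was 0.09, against -0.0074 over all genes. Mms22l, which works with Tonsl on newly replicated H3 and H4, stood at 10.2 and 10.1 in CBR and 8.60 and 7.71 in DMSO, a log2 change of 0.29 (SE 0.17). Set stood at 8.93 and 7.48 in CBR and 7.06 and 6.18 in DMSO, a change of 0.27 (SE 0.18), and Tonsl at 2.93 and 2.27 in CBR and 2.79 and 3.96 in DMSO, a change of -0.27 (SE 0.23). These were the 3 smallest unadjusted p-values of the list, 0.136, 0.179 and 0.270, with an adjusted p of 0.9999 each (limma). In the comparison of CBR+SAM to CBR the median change of the list was -0.10, against 0.014 over all genes. The fitted change was above 0 in 8 and below 0 in 20 of the 28, where it was above 0 in 52.4% of all genes. Without CBR+SAM replicate 2 it was below 0 in 16, with a median of -0.05. Nap1l4, a chaperone of H2A and H2B, stood at 242 and 172 in CBR+SAM and 265 and 261 in CBR, a change of -0.37 (SE 0.18, unadjusted p 0.0849 and adjusted p 0.988, limma). The fitted change was -0.32 (SE 0.19) for Srpk1 and -0.39 (SE 0.24) for Vps72, a chaperone of H2A.Z, in the same comparison. Without CBR+SAM replicate 2 these values were -0.12 for Nap1l4, -0.06 for Srpk1 and -0.07 for Vps72.

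Tonsl had the smallest p of the list in CBR+SAM against DMSO, at 2.21 and 1.83 in CBR+SAM and 2.79 and 3.96 in DMSO, with a change of -0.52 (SE 0.23, unadjusted p 0.0552 and adjusted p 0.9997, limma). The fitted change of Nap1l4 was -0.31 (SE 0.18) and that of Ipo4, an importer of H3 and H4, was 0.50 (SE 0.32). Without CBR+SAM replicate 2 these values were -0.43 for Tonsl, -0.07 for Nap1l4 and 0.51 for Ipo4. Rbbp7 shared 21.8%, Set 39.8%, Npm1 45.5%, Ipo4 60.0% and Vps72 12.7% of the 31-base stretches of their longest coding transcript with other genes of the table, so their values are uncertain.

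Of the 12 histone variant genes 11 were tested. With all 6 libraries, none was called or had an unadjusted p under 0.05 in any comparison (limma). The shares over all genes were 0% to 0.00816% called and 2.12% to 3.09% at an unadjusted p under 0.05 (limma). With 11 genes and such small shares, a count of 0 cannot tell the histone variants from all genes. The H3.3 genes H3f3b and H3f3a, whose product HIRA and Daxx place, were the most abundant. H3f3b stood at 2784 and 2187 in CBR+SAM, 2585 and 2669.7 in CBR, and 2497 and 2524 in DMSO. H3f3a stood at 1339 and 1643 in CBR+SAM, 1172 and 1537 in CBR, and 1434 and 1618 in DMSO, and 21.9% of its longest coding transcript was shared with other genes, as was 10.6% of that of H3f3b. Both genes were above every member in all libraries, in the same length-scaled units.

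H1foo, the oocyte linker histone, differed widely between replicates, at 1014 and 464 in CBR+SAM, 1327 and 776 in CBR, and 1036 and 559.6 in DMSO, replicate 1 being the higher in each group. Its log2 change was 0.41 (SE 0.45) in CBR against DMSO and -0.56 (SE 0.45) in CBR+SAM against CBR, or -0.0019 without CBR+SAM replicate 2. In CBR against DMSO the smallest unadjusted p-values belonged to H2afy (a change of 0.27), H2afv (-0.20) and H3f3a (-0.18), and in CBR+SAM against CBR to H1foo, H2afj (0.18, or -0.05 without CBR+SAM replicate 2) and H3f3a (0.14, or -0.0028). In CBR+SAM against DMSO they belonged to H1f0 (0.26, or 0.33 without that library), H2afj (0.27, or 0.04) and H2afy (0.14, or -0.08).

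**Figure D4:**
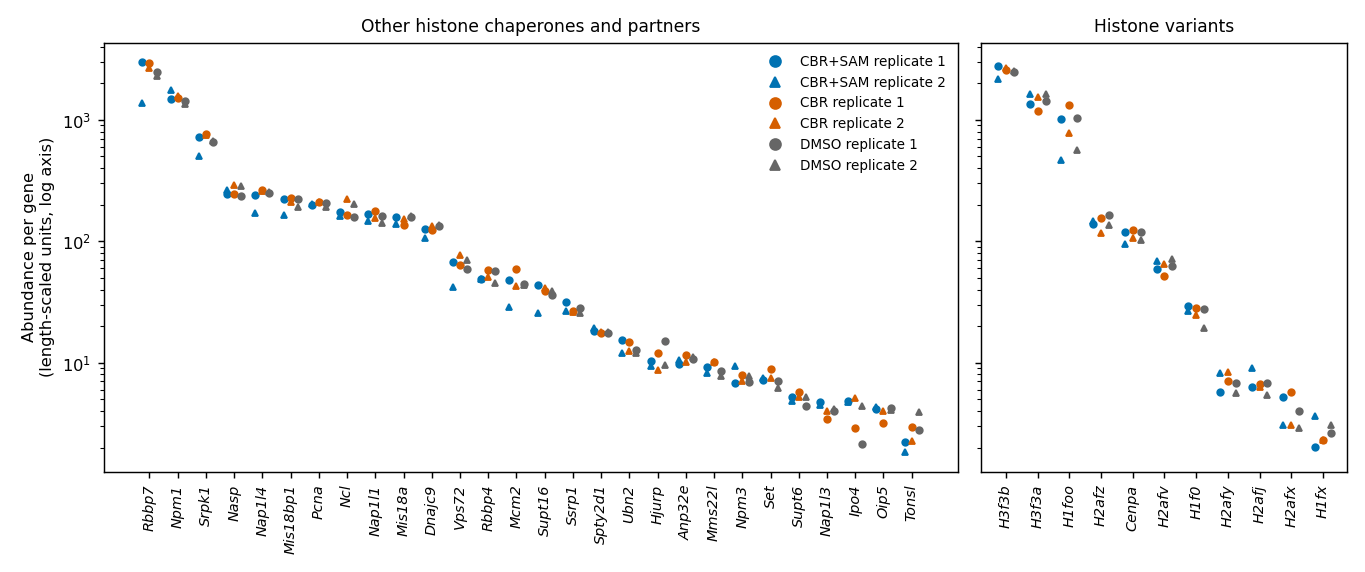
Abundance of the 28 other histone chaperone and partner genes (left) and 11 histone variant genes (right) that were tested, on a log axis in the authors' length-scaled units, coloured by group with circles and triangles for replicates 1 and 2. The blue triangle of CBR+SAM replicate 2 is the lowest point for Rbbp7 (1383) and Srpk1 (500.5).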

How the data were processed

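RNA was sequenced from mouse 1-cell embryos with the SMART-Seq v4 kit and Nextera XT libraries, per the labels' protocols. The deposited table holds 1 signal value per gene and library, an abundance whose unit is not stated and which is read as scaled by transcript length. Per the submitters' processing notes the tools were fastp, kallisto and DESeq2 and the build mm10; versions, roles and settings are not given in the sources used here. Median-ratio factors between libraries were 0.992 to 1.01, so the deposited values were used without further scaling. Counts are not used here. Depth was estimated from the steps between low values of single-transcript genes, at about 25.2 M to 32.2 M reads per library (M is 1000000), which rests on unweighted mean transcript lengths, and by the same steps about 61 (Hira) to 61000 (Atrx) reads lay behind a member's value, if all came from its longest coding transcript. Intervals on such numbers would cover counting error only.

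Identifiers were matched to symbols and GENCODE M21 coordinates (35768 of 36065). Values were transformed as log2(value + 1), and the 12249 genes that reached 1 in 2 or more libraries were fitted with limma 3.58.1 in R 4.3.3, 3 groups together, letting the variance follow the mean (trend), on 3 residual degrees of freedom. P-values were adjusted by Benjamini-Hochberg over all genes with a threshold of 0.05. They set each group difference against the spread between libraries, with 2 per group. The variance of each gene was drawn toward that of genes of similar mean. The fit was tested on simulated data with known changes, and the share of these that it found is not reported here. The members and lists were chosen with earlier results of these data known. Named genes are all members and, per list, the 3 highest means and the 3 smallest p-values in each comparison, and the 3 genes most correlated with Npm2 and with the member of smallest p. Sequence sharing was counted in stretches of 31 bases on either strand. Alternatives changed scaling, filter, pseudocount, gene set, libraries and the replicate block. List genes without CBR+SAM replicate 2 were added after seeing the data.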

Additional observations from a re-analysis of the deposited data

How the results depend on the processing

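No member tested was called in any comparison under the 14 alternatives (limma). With a mean of at least 10, 6 of the 10 members were tested, without Chaf1b, Hira, Cabin1 and Daxx. Over all genes, the single call in each CBR+SAM comparison (with CBR and with DMSO) became 0 with a pseudocount of 0.1, without a filter, with a mean of at least 10 and with protein-coding genes alone. With the 4 libraries compared alone it became 0 in CBR+SAM against DMSO, and 1 gene was called in CBR against DMSO. Leaving out 1 library gave 0 to 2 calls in CBR against DMSO, 0 to 8 in CBR+SAM against CBR (8 without CBR+SAM replicate 1) and 0 to 3 in CBR+SAM against DMSO. The called gene, the pseudogene Gm16550, is not among the protein-coding genes, so its loss in that setting was fixed by construction. The causes of the other differences were not tested. The lowest adjusted p of a member was 0.123, for Asf1b in CBR+SAM against CBR without CBR+SAM replicate 1 (log2 change -0.57). Of the 30 changes of members, none of which was called, 9 had another sign without CBR+SAM replicate 2. There were 3 to 7 without each of the other libraries and 2 after rescaling each library to 1000000. By construction, a left-out library cannot alter the changes of the 10 members in the comparison that does not use its group. With median-ratio scaling and with a pseudocount of 0.1 the sign differed in 0 of 30, while the other alternatives leave the fitted changes as they are by construction. Replicate numbers are not stated to mark a shared batch, and the replicate differences of the groups correlated at 0.39 (CBR and DMSO), 0.09 (CBR+SAM and CBR) and 0.22 (CBR+SAM and DMSO) across genes. With the replicate block, which leaves the fitted changes as they are in this balanced design, 0 members were called in each comparison. A single left-out library leaves its group with 1, which is assumed to vary like the others.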
